A study of Arabidopsis thaliana with 12 samples.

Results

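The genes described here encode the pumps that acidify the vacuole and other endomembrane compartments of Arabidopsis thaliana, the vacuolar H+-ATPase (V-ATPase) and the membrane-bound H+-pyrophosphatases (H+-PPases). They were taken by locus identifier and number 31 of the 33010 genes in the deposited table. Of these, 28 encode the 13 subunits of the V-ATPase and 3 encode H+-PPases.

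RNA was sequenced from shoots and from roots of 8-day-old seedlings of the wild type Col-0 (WT) and of CCA1 overexpressors (CCA1-ox). Each of the 4 groups has 3 libraries. All groups grew at 22 °C in white fluorescent light that was kept on at 15 µE, and the study's title names the circadian clock and proton gradients as its subject. CCA1 is a MYB transcription factor of the morning arm of the clock. The promoter that drives it in CCA1-ox plants, the number of lines and the hour of harvest are not stated in the labels, and no label says that libraries came from separate cultures, so p-values measure only the spread between these libraries, which may be technical.

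The V-ATPase is a rotary motor. Its cytosolic V1 sector hydrolyses ATP at the catalytic A subunits, which alternate with B subunits, and turns a ring of c subunits in the membrane-bound Vo sector, where protons cross against subunit a. The H+-PPases pump protons with a single type of polypeptide that splits pyrophosphate, a by-product of biosynthesis. In plants the gradient these pumps make drives the loading of nitrate, sugars, calcium and sodium into the vacuole, which in turn supports turgor and cell expansion.

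Levels are the deposited FPKM, which is scaled to gene length and library size; means are given ± SD over n = 3 libraries, and the libraries of a group are listed in the order of their replicate numbers. CCA1 itself (AT2G46830) stood at 44.9, 45.2 and 44.8 FPKM in WT shoots and at 214, 216 and 212 in CCA1-ox shoots, a 4.76-fold rise, and rose 10.2-fold in roots, from 17.1 ± 0.838 to 175 ± 4.36. Libraries held 27142671 to 45051329 fragments. The library size behind the deposited FPKM was not this sum: in shoots it averaged 0.906 of the sum for WT and 0.976 for CCA1-ox, and in roots 1.148 for WT and 1.097 for CCA1-ox, so between-group changes of the size found here depend on the scaling. Each comparison was therefore repeated under 3 other scalings (quantile normalization, rescaling to summed fragments, and limma voom with trimmed-mean factors, which also replaces the log2(FPKM + 1) model by a weighted one), and calls that held under all 4 are named as such.

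The organ labels fitted their markers: 5 photosynthesis genes summed to 18250 to 19700 FPKM in shoots and to 3.91 to 10.7 in roots, and 5 root genes, of which 1 was at 0 in shoots and 1 is also an endodermis marker, to 2.09 to 5.54 in shoots and 122 to 193.5 in roots. These and other markers moved with the genotype. Of all genes, 26.6% were called higher and 28.9% lower in CCA1-ox shoots, and 20.8% and 15.4% in CCA1-ox roots. The root genes summed to 2.09 to 2.45 for WT and 4.48 to 5.54 for CCA1-ox in shoots, where 2 of 5 rose. Most of these shoot sums came from the gene that is also an endodermis marker, at 2.175 ± 0.171 for WT and 4.61 ± 0.609 for CCA1-ox. In roots the root genes summed to 122 to 124 for WT and 188 to 193.5 for CCA1-ox, where 4 rose and 1 fell. The photosynthesis genes summed in roots to 8.91 to 10.7 for WT and 3.91 to 4.52 for CCA1-ox, where 2 of 5 fell, and in shoots 1 rose and 1 fell. The 4 endodermis markers, none at 0 in any group, summed to 10.1 to 12.6 FPKM in shoots of WT and 24.6 to 29.5 in those of CCA1-ox. In roots the sums were 237 to 246 for WT and 347 to 357 for CCA1-ox, and all 4 rose in both organs. The 4 xylem markers rose in shoots, from sums of 61.0 to 62.6 up to 108 to 110, and in roots their sums covered the same range in both genotypes, 189.5 to 191.3. The part of these shifts in the results below was not tested, and in whole organs fewer cells of a type and less RNA per cell cannot be told apart.

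All but 2 of the 31 genes were expressed in both organs in every group. The exceptions were VHA-E2 (AT3G08560), an isoform of the peripheral stalk subunit E known from pollen, with 0 to 6 fragments in each of the 12 libraries, and VHA-G3 (AT4G25950), an isoform of the stalk subunit G. VHA-G3 had 14 to 28 fragments in each of the 6 shoot libraries (0.383 to 0.705 FPKM) and 0 fragments in each of the 6 root libraries, where a floor of 3 fragments is the limit of detection. Both missed the filter (3 or more libraries with an FPKM of 1 or more), so 29 members were tested.

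The most abundant transcript differed between organs. In WT shoots it was AVP1 (AT1G15690), the class I H+-PPase of the vacuolar membrane, at 286 ± 2.86 FPKM, ahead of the stalk gene VHA-E1 at 187 ± 3.01 and the catalytic gene VHA-A at 157 ± 1.97. In WT roots VHA-E1 led at 244.5 ± 10.2, followed by VHA-c2 at 215 ± 9.69, VHA-A at 190.3 ± 3.88 and AVP1 at 178 ± 1.90. Neighbours in these orders did not overlap between libraries.

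Summed over isoforms, subunit c, the proton-carrying ring protein that is present in many copies per pump, had the highest level of the 13 subunits in all 4 groups, at 446 ± 1.98 FPKM for WT and 425 ± 9.78 for CCA1-ox in shoots, and 606 ± 10.6 for WT and 632.5 ± 11.2 for CCA1-ox in roots. Subunit C, a single gene whose product binds the peripheral stalks, was lowest in all 4, with means from 45.03 to 54.8. The stalk and hexamer subunits E, B and A followed c in every group, with B above E in shoots and E above B in roots. The subunits e, a, d and H lay close together in WT shoots, from 114.5 ± 1.52 to 120 ± 3.35, with overlapping libraries between e and a and between d and H.

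**Figure D1:**
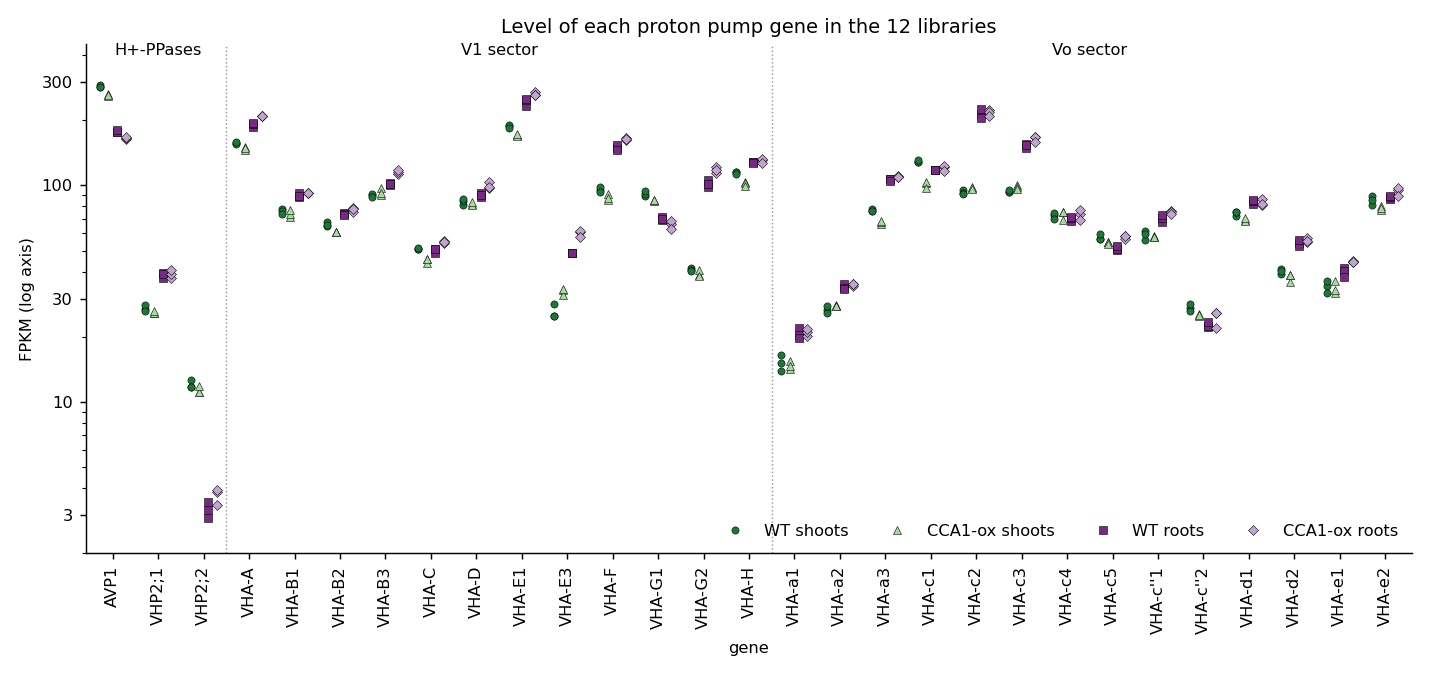
Level of the 29 tested genes (FPKM, log axis) in each of the 12 libraries, grouped as H+-PPases, V1 and Vo sectors; each point is a library and symbols mark the 4 groups. AVP1 lies higher in shoots and most V-ATPase genes lie higher in roots, with replicate points close together.

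Replicates were tight. The spread was taken among the 28 members with a mean of at least 10 FPKM over all 12 libraries. Their median coefficient of variation was 2.51%, 2.04%, 2.09% and 2.21% in the 4 groups, on 959 to 35044 fragments per gene and library. Overlap with neighbours limits some values: 13 of the 31 genes share bases with another gene, 3 of them on the same strand (AVP1, VHP2;2 and VHA-c''2). The kit keeps strand, but whether the counting used it is not given in the sources used here. VHA-C shares 999 bases with a gene on the other strand that averaged 13.4 FPKM. VHP2;2 shares 302 bases with a gene on the other strand (9.4 FPKM) and 153 with one on its own strand (2.84 FPKM). Its own means were 12.02 FPKM in WT shoots and 3.18 in WT roots.

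In WT, roots held more V-ATPase transcript and less H+-PPase transcript than shoots. The summed V-ATPase level was 1972, 1966 and 1963 FPKM in the 3 WT shoot libraries and 2430, 2499 and 2466 in the 3 WT root libraries, while the 3 H+-PPase genes summed to 323, 329 and 324 in shoots and 220, 216 and 222 in roots. All root libraries lay above all shoot libraries for the first sum and below them for the second. Of the 29 members, 20 were higher and 6 lower in roots (limma with Benjamini-Hochberg adjustment over 20975 genes, adjusted p under 0.05). Of all genes tested 87.2% were called, 45.3% higher and 41.8% lower. All root libraries lay above all shoot libraries for 20 members and below them for 6, against 45.6% and 42.3% of all genes. The 20 higher calls held under all 4 scalings, and of the lower calls AVP1 and VHP2;2 did.

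The ratio of AVP1 to VHA-A within a library, which no scaling factor of the library changes, showed the same contrast. It was 1.80, 1.86 and 1.80 in WT shoots and 0.953, 0.919 and 0.929 in WT roots. The level of AVP1 was 284, 289 and 286 FPKM in shoots and 177, 176 and 180 in roots, a log2 fold change of -0.69 ± 0.019 (SE; limma adjusted p = 1.72e-13). The class II H+-PPases of the Golgi moved in opposite directions. VHP2;1 (AT1G78920) rose from 27.1 ± 0.834 to 38.7 ± 1.03 (log2 fold change 0.50 ± 0.035, adjusted p = 8.76e-09, limma) and VHP2;2 (AT1G16780) fell from 12.02 ± 0.547 to 3.18 ± 0.274 (-1.64 ± 0.065, adjusted p = 1.06e-11, limma). The share of VHP2;1 in their sum was 68.0, 70.6 and 69.2% in WT shoots and 92.6, 92.8 and 91.9% in WT roots. VHP2;2 overlaps genes on both strands, as given above, and the part of that overlap in these values was not tested.

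Of the 26 V-ATPase genes tested, 19 were higher in WT roots and 4 lower, where 45.3% of all genes were higher and 41.8% lower. None of the 4 lower calls held under all 4 scalings. On the deposited scale, isoforms of some subunits moved in opposite directions. VHA-G2 (AT4G23710), a stalk subunit G gene, had 41.4, 40.8 and 40.2 FPKM in WT shoots and 98.7, 105.4 and 101.0 in WT roots, a log2 fold change of 1.30 ± 0.034 (limma adjusted p = 9.02e-14). Its paralog VHA-G1 (AT3G01390) went from 91.6 ± 2.33 to 70.0 ± 1.25 (-0.38 ± 0.032, adjusted p = 5.10e-08, limma). VHA-G2 thus made up 31.5, 30.8 and 29.8% of subunit G in WT shoots and 58.9, 59.6 and 59.2% in WT roots. The fall of VHA-G1 was lost when libraries were rescaled to summed fragments, and the change in share was not affected by that rescaling.

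Subunit c showed a similar split. VHA-c2 (AT1G19910) rose from 95.1, 92.0 and 91.6 FPKM in WT shoots to 214.5, 224.5 and 205 in WT roots (log2 fold change 1.20 ± 0.032, adjusted p = 1.12e-13, limma), and VHA-c3 (AT4G38920) from 94.1 ± 1.04 to 153 ± 3.06 (0.69 ± 0.027, adjusted p = 8.34e-12, limma). VHA-c1 (AT4G34720) and VHA-c5 (AT2G16510) were lower in roots on the deposited scale, with log2 fold changes of -0.13 ± 0.028 and -0.17 ± 0.028, and turned to 0.21 and 0.17 when libraries were rescaled to summed fragments; VHA-c1 also turned under quantile normalization, to 0.09. VHA-c4 (AT1G75630) was not called on the deposited scale (-0.05 ± 0.043, adjusted p = 0.317, limma) and was 0.29 under summed fragments. As shares of subunit c, VHA-c2 went from 20.8 ± 0.434% to 35.4 ± 1.09% and VHA-c1 from 28.9 ± 0.393% to 19.4 ± 0.382%.

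The c genes encode nearly the same protein. VHA-c1, VHA-c3 and VHA-c5 encode the same protein in the RefSeq annotation of TAIR10.1, and their coding sequences differ from each other at 51 to 73 bases. VHA-c2 and VHA-c4 are 99.4% and 98.2% identical to VHA-c1 in protein. The longest run of coding bases shared by any c pair was 41. The last 60 coding bases before the stop codon, from RefSeq TAIR10.1, are shown because they code for the same residues in all 5 genes; capitals mark the 16 positions at which the genes differ.
VHA-c1: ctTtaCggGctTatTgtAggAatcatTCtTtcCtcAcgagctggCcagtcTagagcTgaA
VHA-c2: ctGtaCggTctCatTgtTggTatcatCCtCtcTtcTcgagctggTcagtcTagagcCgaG
VHA-c3: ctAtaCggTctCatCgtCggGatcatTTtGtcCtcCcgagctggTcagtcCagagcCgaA
VHA-c4: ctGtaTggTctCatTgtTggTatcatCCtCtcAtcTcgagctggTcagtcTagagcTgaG
VHA-c5: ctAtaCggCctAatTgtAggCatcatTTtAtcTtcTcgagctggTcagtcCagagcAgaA
These stretches lie in single exons, at chr4:16568226-16568285 on the minus strand for VHA-c1, chr1:6914260-6914319 (plus) for VHA-c2, chr4:18148791-18148850 (plus) for VHA-c3, chr1:28401970-28402029 (plus) for VHA-c4 and chr2:7160010-7160069 (minus) for VHA-c5.

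The other V-ATPase subunits were mostly higher in WT roots. The stalk gene VHA-E3 (AT1G64200) rose from 24.9, 28.3 and 25.0 FPKM to 48.5, 48.7 and 48.6 (log2 fold change 0.88 ± 0.045, adjusted p = 2.18e-10, limma), with no overlap between the organs. VHA-F (AT4G02620), part of the central rotor shaft, rose from 96.0 ± 2.69 to 150 ± 3.99 (0.64 ± 0.030, adjusted p = 9.02e-11, limma). All 3 isoforms of the proton-channel subunit a rose, with log2 fold changes of 0.34 to 0.47; VHA-a1 (AT2G28520) is the isoform of the trans-Golgi network and VHA-a2 (AT2G21410) and VHA-a3 (AT4G39080) are those of the vacuolar membrane. Their shares hardly differed between organs: VHA-a3 held 64.6 ± 0.640% of subunit a in WT shoots and 65.99 ± 0.749% in WT roots.

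The hexamer subunits rose less. VHA-A gained 0.27 ± 0.021 on the log2 scale and VHA-B1, VHA-B2 and VHA-B3 gained 0.24, 0.15 and 0.17, so the isoform mix of subunit B stayed within 38.3 to 38.9% for VHA-B3 on average. The rotor shaft gene VHA-D (AT3G58730) rose by 0.10 ± 0.032 (adjusted p = 0.0106, limma); without replicate 1 of WT shoots that p was 0.0571. The single genes of the 2 regulatory subunits split: VHA-H (AT3G42050) rose by 0.16 ± 0.024 and VHA-C (AT1G12840) was not called on the deposited scale (-0.03 ± 0.028, adjusted p = 0.354, limma) but was higher under quantile normalization and rescaling to summed fragments, at 0.11 and 0.31.

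Among the smaller membrane subunits, the isoforms of c'', a second proteolipid, moved in opposite directions on the deposited scale. VHA-c''1 (AT4G32530) rose from 61.9, 55.7 and 59.4 FPKM in WT shoots to 67.6, 70.5 and 73.1 in WT roots (log2 fold change 0.25 ± 0.037, adjusted p = 2.08e-05, limma), with no overlap. VHA-c''2 (AT2G25610) had -0.25 ± 0.053 there and turned to 0.08 under summed fragments. Of the subunit d genes, which join the ring to the shaft, VHA-d1 rose by 0.18 ± 0.029 and VHA-d2 by 0.42 ± 0.036. VHA-d1 and VHA-d2 share 95.1% of coding bases, with an identical run of 86 bases, so a fragment can belong to either. VHA-e1 rose by 0.22 ± 0.052. In CCA1-ox against WT, VHA-c''1 was not called in shoots (-0.02 ± 0.037) or in roots (0.09 ± 0.037, adjusted p = 0.0801, limma).

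**Figure D2:**
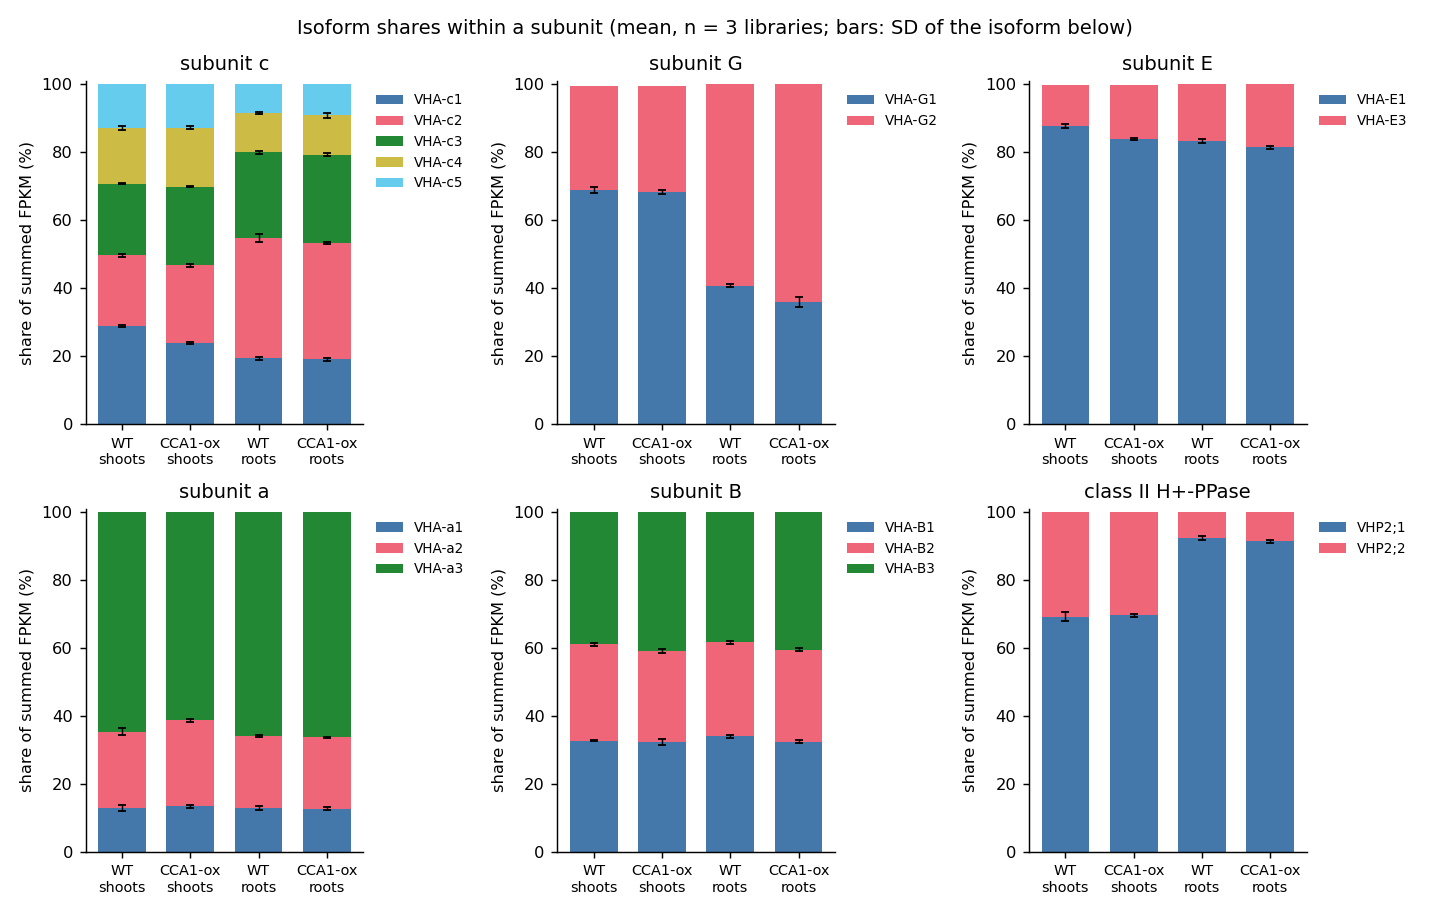
Share of each isoform in the summed FPKM of its subunit (stacked bars, mean of n = 3 libraries per group, in percent); error bars give the SD of the isoform below the line, and VHA-E2 and VHA-G3, at under 1%, are left out. VHA-G2 goes from 30.7% of subunit G in WT shoots to 59.2% in WT roots, and in shoots VHA-c1 is 28.9% of subunit c for WT and 23.8% for CCA1-ox.

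In shoots, CCA1-ox plants had lower VHA-c1, VHA-a3 and VHA-C and higher VHA-E3 than WT, and these 4 calls held under all 21 alternative settings. On the deposited scale 2 of the 29 members were higher and 14 lower in CCA1-ox shoots, where 55.5% of all genes were called, 26.6% higher and 28.9% lower. The members' median log2 fold change was -0.08, against -0.01 over all genes. Every CCA1-ox library lay below every WT library for 16 members and above for 4, and the same held for 31.7% and 28.7% of all genes.

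The largest change in shoots was that of the ring gene VHA-c1. Its level was 128, 128 and 131.5 FPKM in WT shoots and 103, 103 and 97.5 in CCA1-ox shoots, a log2 fold change of -0.35 ± 0.028 (limma adjusted p = 1.96e-07). The groups did not overlap, and under the other 3 scalings the log2 fold change was -0.33 to -0.21. Among the other c genes, VHA-c5 was called lower (-0.08 ± 0.028) and VHA-c3 higher (0.07 ± 0.027) on the deposited scale. VHA-c2 and VHA-c4 were not called there (0.06 ± 0.032 and 0.01 ± 0.043), but VHA-c2 was called higher under each of the other 3 scalings and VHA-c4 under quantile normalization and summed fragments. Within subunit c, VHA-c1 fell from 28.6, 28.8 and 29.4% to 23.9, 24.0 and 23.6%. VHA-c1, the most abundant c gene in WT shoots, was level with VHA-c3 in CCA1-ox shoots, with a ratio of 1.02, 1.05 and 1.01 where WT shoots had 1.37, 1.37 and 1.38.

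VHA-E3 rose. It had 24.9, 28.3 and 25.0 FPKM in WT shoots and 32.7, 31.2 and 33.2 in CCA1-ox shoots (log2 fold change 0.30 ± 0.045, adjusted p = 6.66e-05, limma), with every CCA1-ox library above every WT library. The main isoform VHA-E1 (AT4G11150) had 189, 189 and 184 in WT and 171, 170 and 173 in CCA1-ox (-0.13 ± 0.028, adjusted p = 0.00139, limma), a fall that turned to a rise of 0.04 under quantile normalization. The share of VHA-E3 in subunit E went from 12.2 ± 0.702% to 15.9 ± 0.311%. In WT roots it was 16.6 ± 0.568%.

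VHA-a3 fell from 75.9, 77.6 and 76.1 FPKM to 66.4, 68.1 and 68.6 (log2 fold change -0.17 ± 0.022, adjusted p = 1.60e-05, limma). The groups were well apart. Its partner at the vacuolar membrane, VHA-a2, went from 26.7 ± 0.996 to 27.9 ± 0.204 and was not called on the deposited scale (0.06 ± 0.033, adjusted p = 0.129, limma), though it was called higher under each of the other 3 scalings. The mix of the 2 vacuolar isoforms therefore moved: VHA-a3 went from 64.6 ± 0.640% to 61.3 ± 0.359% of subunit a and VHA-a2 from 22.6 ± 0.954% to 25.3 ± 0.523%, and VHA-a1 from 12.8 ± 0.907% to 13.4 ± 0.460%, within the spread.

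VHA-C, the stalk-linking subunit, fell from 50.9, 51.0 and 51.3 FPKM to 45.7, 43.6 and 45.8 (log2 fold change -0.18 ± 0.028, adjusted p = 1.14e-04, limma), again with no overlap. Its fall was smaller under the scaling to summed fragments, at -0.07 (adjusted p = 0.0459, limma). Relative to VHA-A in the same library it went from 0.325 ± 0.00354 to 0.303 ± 0.00524.

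Apart from VHA-c3, the remaining shoot calls on the deposited scale were falls, with log2 fold changes of -0.17 to -0.08. Each of these falls ended or turned under at least 1 other scaling. They comprised AVP1 (286 ± 2.86 to 261 ± 2.49 FPKM), VHA-A, VHA-B2, VHA-E1, VHA-F, VHA-G1, VHA-H, VHA-c5, VHA-d1, VHA-d2 and VHA-e2. Direction turned under quantile normalization for AVP1, VHA-A, VHA-E1 and VHA-G1, and under summed fragments for VHA-A, VHA-G1, VHA-c5, VHA-d1 and VHA-d2. VHA-H, known in yeast to restrain free V1, had -0.17 ± 0.024 on the deposited scale and was not called under quantile normalization or summed fragments, at -0.05 and -0.06. VHA-c3 was called higher under all 4 scalings, but on the deposited scale by a narrow margin (adjusted p = 0.0469, limma), and 7 of the 12 libraries when left out singly raised that p to 0.0529 to 0.156.

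Some of these calls ended when 1 library was left out. VHA-d2, at -0.09 on the log2 scale with all libraries, went to -0.06 without replicate 1 of CCA1-ox shoots (adjusted p = 0.196, limma) and to -0.08 without replicate 1 of WT shoots (0.135). VHA-c5 went from -0.08 to -0.06 without replicate 3 of WT shoots (adjusted p = 0.121, limma). Without that library the adjusted p was also 0.0688 for VHA-G1 and 0.0887 for VHA-d2, at -0.08 and -0.09. VHA-e2 had -0.09 without replicate 1 of WT shoots (0.0601) and -0.10 without replicate 2 of CCA1-ox shoots (0.0507), against -0.12 with all. In other cases the p passed the threshold with the fold nearly as before: VHA-c5 without replicate 1 or 3 of CCA1-ox shoots (0.0541 and 0.0807, at -0.08 and -0.07) and VHA-d2 without replicate 1 of WT roots (0.0535, at -0.09).

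**Figure D3:**
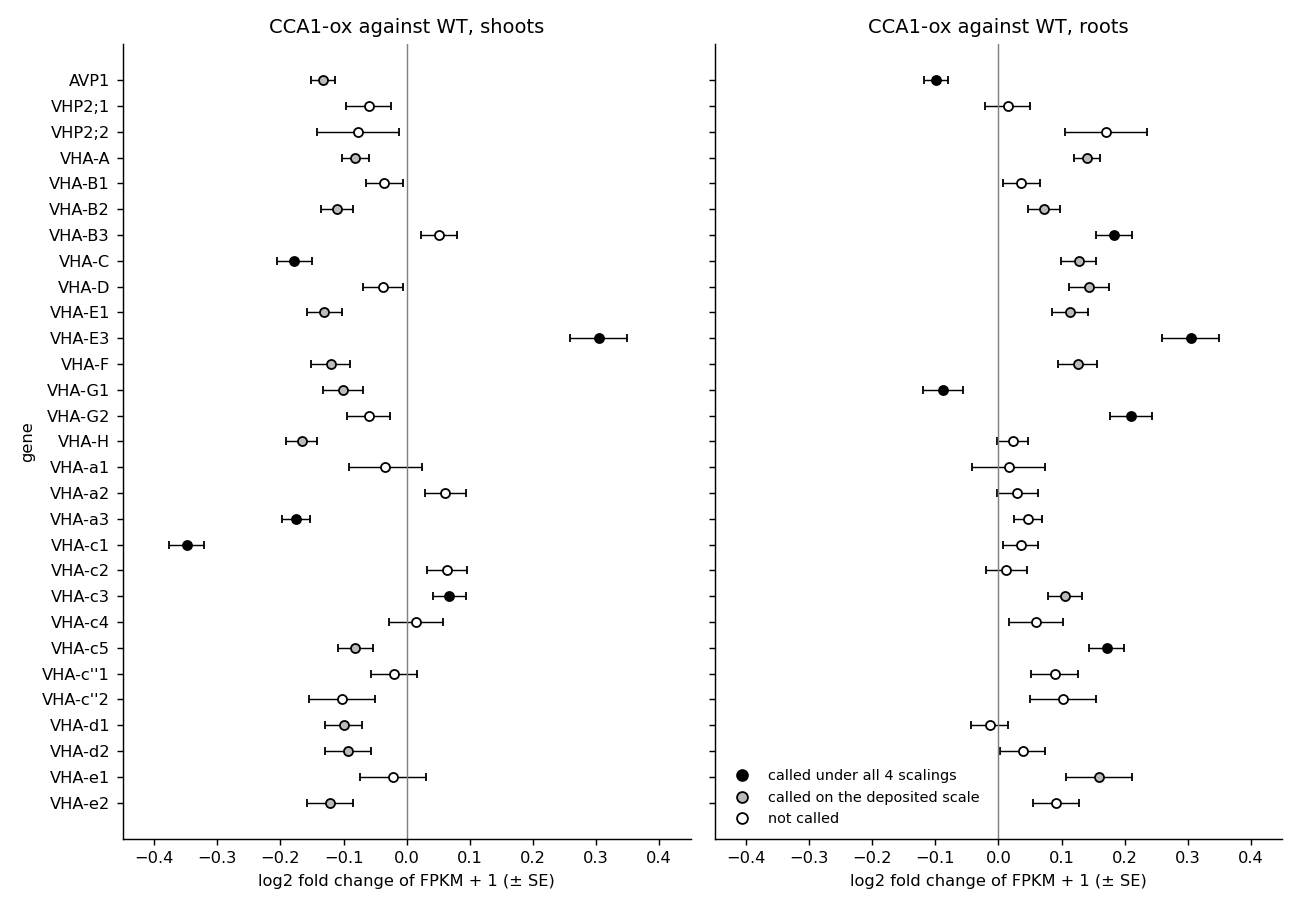
Log2 fold change of FPKM + 1 in CCA1-ox against WT (± SE from limma, n = 3 libraries per group) for the 29 tested genes in shoots and roots. Black points were called under all 4 scalings, grey points on the deposited scale but not under all others, open points not on the deposited scale; VHA-c1 has the lowest value in shoots (-0.35) and VHA-E3 the highest in both organs (0.30).

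In roots, CCA1-ox plants had higher VHA-E3, VHA-G2, VHA-B3 and VHA-c5 and lower AVP1 than WT under all 21 alternatives. On the deposited scale 12 of the 29 members were higher and 2 lower, where 36.3% of all genes were called, 20.8% higher and 15.4% lower, with a members' median of 0.09 against 0.02 over all genes. By sector, 9 of 12 tested V1 genes rose and 1 fell, 3 of 14 Vo genes rose and none fell, and of the 3 H+-PPases AVP1 fell. Every CCA1-ox library lay above every WT library for 15 members and below for 2, against 27.6% and 19.7% of all genes. Under quantile normalization 5 members rose and 5 fell, where 17.7% and 17.5% of all genes did, a share near that of the members.

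VHA-E3 rose as it had in shoots, from 48.5, 48.7 and 48.6 FPKM in WT roots to 61.2, 61.8 and 57.8 in CCA1-ox roots (log2 fold change 0.30 ± 0.045, adjusted p = 1.42e-04, limma). The groups did not overlap. Its share of subunit E went from 16.6 ± 0.568% to 18.6 ± 0.486%. Of the 29 members, only VHA-E3 was called higher in both organs under all 4 scalings.

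VHA-G2 rose from 98.7, 105.4 and 101.0 FPKM to 122, 114 and 117 (log2 fold change 0.21 ± 0.034, adjusted p = 2.81e-04, limma), and VHA-G1 was lower at 66.5, 68.4 and 62.6 against 69.0, 71.4 and 69.7 (-0.09 ± 0.032, adjusted p = 0.0458, limma). The VHA-G1 call held under all 4 scalings but was narrow: 9 of the 12 libraries when left out singly raised its p to 0.0567 to 0.181. Without replicate 3 of CCA1-ox roots the log2 fold change was -0.05, and without any of 4 shoot libraries the p passed the threshold with the fold unchanged. The share of VHA-G2 in subunit G went from 58.9, 59.6 and 59.2% to 64.8, 62.5 and 65.2%. In shoots the same share was 30.7 ± 0.870% in WT and 31.3 ± 0.695% in CCA1-ox.

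VHA-B3 (AT1G20260), an isoform of the nucleotide-binding subunit B, rose from 100.5, 102.9 and 101.4 FPKM to 113, 115.5 and 118 (log2 fold change 0.18 ± 0.029, adjusted p = 2.34e-04, limma). VHA-B1 was not called (0.04 ± 0.030), and VHA-B2 was called at 0.07 ± 0.025 (adjusted p = 0.0392, limma). The VHA-B2 call was lost under each of the other 3 scalings and with the replicate block. It was also lost when any of 7 libraries was left out, with adjusted p of 0.0501 to 0.137 (limma). In roots VHA-B3 made up 38.3 ± 0.150% of subunit B for WT and 40.5 ± 0.329% for CCA1-ox, and in shoots 38.9 ± 0.467% and 40.9 ± 0.983%. VHA-B1 and VHA-B3 share 90% of coding bases, with an identical run of 80 bases, so a fragment can belong to either.

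Among Vo genes the call that held was VHA-c5, with 50.4, 50.6 and 52.4 FPKM in WT roots and 58.3, 56.5 and 58.4 in CCA1-ox roots (log2 fold change 0.17 ± 0.028, adjusted p = 3.47e-04, limma). The c genes with the highest root levels moved less. VHA-c2 was not called (0.01 ± 0.032, adjusted p = 0.814, limma) and VHA-c1 was not called (0.03 ± 0.028, adjusted p = 0.376, limma). VHA-c3 rose by 0.11 ± 0.027 on the deposited scale and was not called under quantile normalization or summed fragments. VHA-c5 remained the least abundant c gene in roots, at 9.13 ± 0.259% of subunit c.

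AVP1 fell in roots. It had 177, 176 and 180 FPKM in WT and 164, 166 and 168 in CCA1-ox (log2 fold change -0.10 ± 0.019, adjusted p = 0.00112, limma). The ratio to VHA-A was 0.953, 0.919 and 0.929 in WT roots and 0.783, 0.789 and 0.800 in CCA1-ox roots, and 1.82 ± 0.0370 and 1.76 ± 0.00702 in WT and CCA1-ox shoots. In both organs all CCA1-ox ratios were below all WT ratios. VHP2;1 was not called in roots (0.01 ± 0.035) and VHP2;2 narrowly was not (0.17 ± 0.065, adjusted p = 0.0577, limma).

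The other root rises on the deposited scale were those of VHA-A, VHA-C, VHA-D, VHA-E1, VHA-F and VHA-e1. VHA-A had 186, 191 and 193.5 FPKM in WT and 209.6, 210.0 and 209.7 in CCA1-ox (log2 fold change 0.14 ± 0.021, adjusted p = 1.61e-04, limma) and lost its call under quantile normalization alone. The remaining 5 lost theirs under both quantile normalization and summed fragments. VHA-e1 (AT5G55290), a small membrane subunit, also lost it when any of 5 libraries was left out, with p of 0.0610 to 0.125. The summed V1 level went from 1338 ± 24.5 to 1451 ± 13.1 and the summed Vo level from 1127 ± 10.2 to 1175 ± 16.1, and the V1 to Vo ratio from 1.17, 1.20 and 1.20 to 1.23, 1.23 and 1.24. In shoots that ratio was 1.22 ± 0.0152 in WT and 1.22 ± 0.0154 in CCA1-ox.

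**Figure D4:**
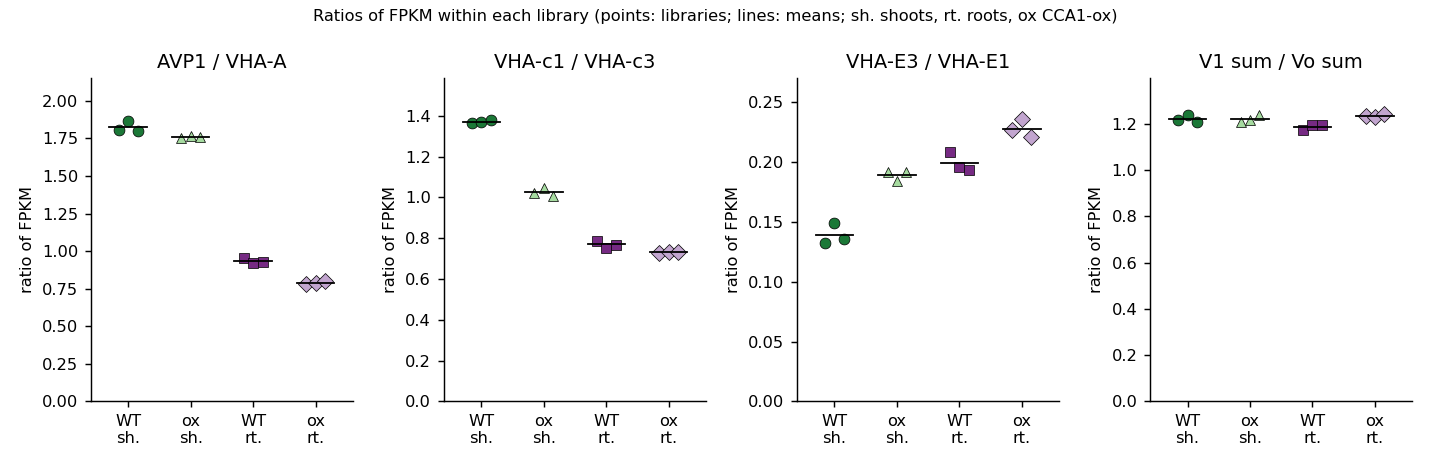
Ratios of FPKM within each of the 12 libraries, on axes that start at 0; points are libraries and lines are means of n = 3. AVP1 over VHA-A falls from 1.82 in WT shoots to 0.791 in CCA1-ox roots, VHA-c1 over VHA-c3 falls in CCA1-ox shoots, VHA-E3 over VHA-E1 is higher in CCA1-ox of both organs, and V1 over Vo lies between 1.17 and 1.24 throughout.

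The effect of CCA1-ox differed between organs for VHA-c1 and VHA-C under all 20 alternatives of the interaction test. The root effect minus the shoot effect was 0.38 ± 0.040 on the log2 scale for VHA-c1 (adjusted p = 3.42e-06, limma) and 0.31 ± 0.040 for VHA-C (adjusted p = 2.83e-05, limma). On the deposited scale this difference was positive and called for 16 of the 29 members and negative and called for none, where 50.7% of all genes were called, 27.2% positive and 23.5% negative. For VHA-E3, which rose in both organs, the difference was 0.00039 ± 0.064 and turned to -0.17 under summed fragments. Under quantile normalization 4 were positive and 5 negative (29.2% and 23.3% of all genes), and under summed fragments 2 were positive and 6 negative (15% and 36.7% of all genes).

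This dependence on scaling has a measured size. Rescaling to summed fragments moved the median of all genes from 0.04 to -0.11 in the interaction and from 0.03 to 0.33 in WT roots against WT shoots. Relative to the median of all genes, the members' median in the interaction was 0.14 higher on the deposited scale, 0.12 higher under summed fragments, 0.17 higher under voom and 0.07 lower under quantile normalization. The share of higher genes among all called genes moved too, from 48.0% to 66.04% in shoots, 57.4% to 38.8% in roots, 53.6% to 29.01% in the interaction and 52.0% to 65.6% between WT organs. The members' median in shoots was -0.08 on the deposited scale and -0.06 under voom, and 0.01 and 0.03 under quantile normalization and summed fragments. In roots it was 0.09 and 0.07, and 0.004 and 0.02.

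**Figure D5:**
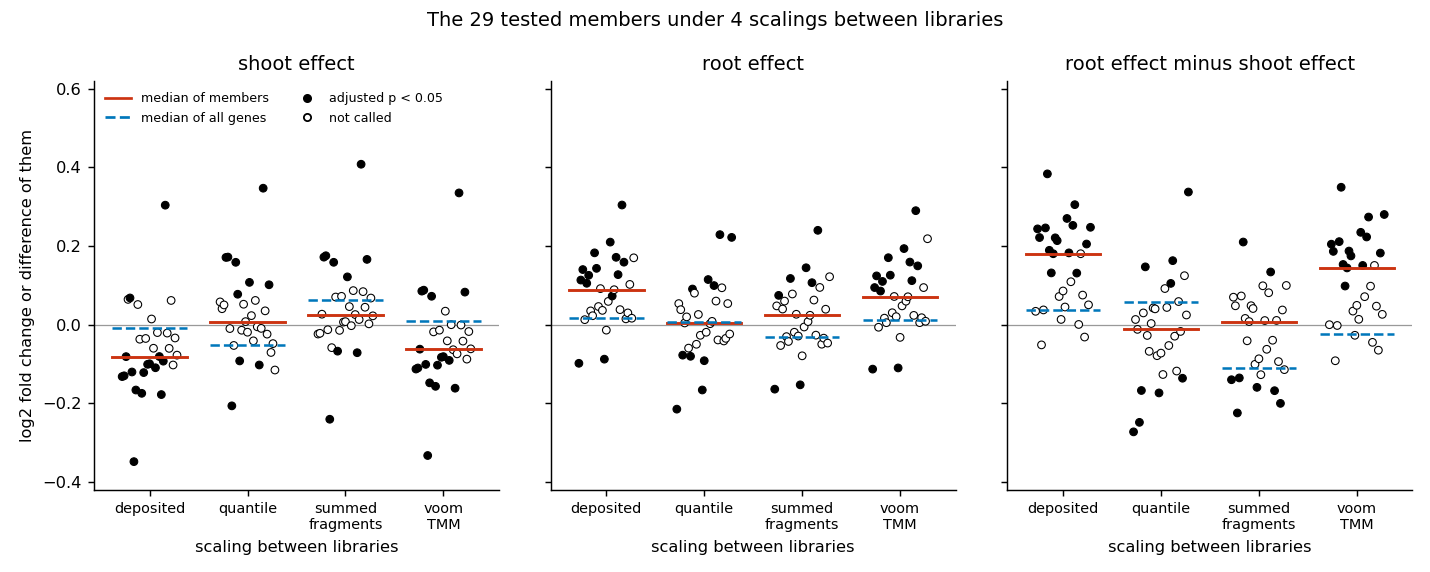
Effects of CCA1-ox on the 29 tested genes (log2 scale; in the right panel, the root effect minus the shoot effect) under 4 scalings between libraries. Each point is a gene, filled where adjusted p was under 0.05; the solid line is the members' median and the dashed line the median of all 20975 genes. In the interaction 16 members are called positive on the deposited scale (27.2% of all genes) and 2 under summed fragments (15%).

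Genes that work beside the pumps were counted as well, against the 55.5% of all genes called in shoots (26.6% higher, 28.9% lower) and the 36.3% called in roots (20.8% higher, 15.4% lower). Of the 4 homologs of yeast V-ATPase assembly factors, 1 rose and 1 fell in CCA1-ox shoots and none was called in roots. AT1G20770 fell (log2 fold change -0.22 ± 0.045, adjusted p = 0.00114, limma). AT5G52980 rose (0.15 ± 0.048, adjusted p = 0.0172, limma), though not under all scalings, and its adjusted p was 0.0655 without replicate 1 of WT shoots and 0.0826 without replicate 1 of CCA1-ox shoots (limma). Of the 6 soluble pyrophosphatases, which compete with AVP1 for pyrophosphate where they share a compartment, 2 rose and 1 fell in shoots and 2 rose in roots, near the share of all genes. PPa5 (AT4G01480) had 3.62, 4.03 and 3.45 FPKM in WT shoots and 15.9, 15.1 and 15.2 in CCA1-ox shoots (1.80 ± 0.045, adjusted p = 1.01e-12, limma). In the same shoots PPa4 rose by 0.54 ± 0.066 and PPa6 (AT5G09650), the plastid enzyme, fell from 233 ± 3.35 to 160 ± 0.112. In roots PPa5 rose by 0.23 ± 0.045, and PPa3 by 0.26 ± 0.085, though not under all scalings and not when any of 4 root libraries was left out (adjusted p of 0.0793 to 0.128, limma).

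Carriers that use the proton gradient were also counted. The CAX and NHX families of exchangers move calcium, sodium or potassium against protons. Of their 11 tested genes, 5 rose and 1 fell in CCA1-ox shoots, where 26.6% of all genes rose and 28.9% fell. In CCA1-ox roots 5 rose and none fell, where 20.8% of all genes rose and 15.4% fell. The abundant calcium exchanger CAX1 (AT2G38170) fell from 104, 103.5 and 102 FPKM to 64.3, 63.8 and 64.5 in shoots (log2 fold change -0.68 ± 0.027, adjusted p = 1.60e-10, limma). CAX3 and NHX2 rose in shoots by 1.23 ± 0.074 and 0.69 ± 0.075, from low levels of 0.976 ± 0.228 and 4.75 ± 0.321. In roots the largest rises were those of CAX4 (0.62 ± 0.059), CAX3 (0.27 ± 0.074) and CAX5 (0.22 ± 0.067, not under all scalings). CAX3 lost its root call without replicate 3 of WT roots (adjusted p = 0.0542, limma), and CAX5 without replicate 1 of WT roots (0.0823) or replicate 3 of CCA1-ox roots (0.0742).

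Of 10 tested sugar, chloride or nitrate and metal carriers of the vacuolar membrane that couple to protons, 4 rose and 4 fell in shoots and 3 rose and 4 fell in roots (55.5% and 36.3% of all genes called). The largest shoot changes were falls of CLC-B, an anion exchanger (-1.003 ± 0.063), of the sugar carrier TMT1 (-0.60 ± 0.032) and of the sugar exporter ERDL6 (-0.44 ± 0.031). The largest root changes were a rise of the zinc carrier MTPA2 (0.47 ± 0.068) and falls of the sugar carriers TMT2 (-0.45 ± 0.036) and SUT4 (-0.33 ± 0.055). These 6 calls held under all 4 scalings.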

How the data were processed

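The authors deposited FPKM for 33010 genes on TAIR10, per the submitters' processing notes; RNA was taken on columns and made into stranded libraries, per the labels' protocols. No aligner, counter or strand setting is given in the sources used here. FPKM times gene length gave whole multiples of a step in 100% of 286400 values (tolerance 0.1), so fragments were recovered.

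The 20975 genes that reached an FPKM of 1 in 3 or more libraries were fitted as log2(FPKM + 1) in all 12 libraries, 4 group means, with limma 3.58.1 (R 4.3.3, trend, 8 residual degrees of freedom), two-sided, Benjamini-Hochberg over all genes, called at adjusted p under 0.05; this scale understates changes of low genes. The fit was tested on simulated data drawn from the WT shoot means, with no difference in scaling between groups. That test therefore cannot decide between the scalings. Shares, sums and ratios are descriptions without a test. Coding sequences were aligned with Biopython 1.88; gene positions equalled RefSeq's for all 31 members.

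The text names CCA1, all members and, per list of partner genes and organ, up to 3 called genes with the largest change. Members and lists were chosen with earlier results of these data known. The labels name no batch, so replicate numbers were not in the model. Correlations of deviations were -0.0445 to 0.0424 for same-numbered libraries and -0.0534 to 0.0451 for differently numbered ones. These values cannot decide whether libraries shared a culture or harvest. Alternatives covered scaling, pseudocount, filter, samples fitted, a replicate block, voom and leaving out each library.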

Additional observations from a re-analysis of the deposited data

Results flagged for a closer look

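The effect of CCA1-ox differed between roots and shoots, by the interaction test in limma on the deposited scale, for 16 of 29 members. This count is near the share of all genes, of which 50.7% were called. All 16 were positive, where 27.2% of all genes were positive and 23.5% negative. That direction was not kept under quantile normalization, with 4 positive and 5 negative, or under summed fragments, with 2 and 6. The root effect minus the shoot effect, on the log2 scale, was 0.38 for VHA-c1, 0.31 for VHA-C, 0.27 for VHA-G2, 0.25 for VHA-F, 0.25 for VHA-c5, 0.25 for VHP2;2, 0.24 for VHA-E1, 0.22 for VHA-A, 0.22 for VHA-a3, 0.21 for VHA-c''2 and 0.21 for VHA-e2. It was 0.19 for VHA-H, 0.18 for VHA-B2, 0.18 for VHA-D, 0.13 for VHA-B3 and 0.13 for VHA-d2.

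VHA-c1 and VHA-C kept the call under all 20 alternatives. For VHA-A, VHA-B3, VHA-H and VHA-d2 the sign turned under quantile normalization, and for VHA-B3 and VHA-d2 also under rescaling to summed fragments; the other 10 lost the call under at least 1 of these. VHP2;2, VHA-c''2 and VHA-d2 also lost it when single libraries were left out, 7, 9 and 7 of the 12, with adjusted p of up to 0.0959, 0.0850 and 0.109 (limma). The endodermis, xylem, root and photosynthesis markers also moved with genotype, and their part in these differences was not tested.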

How the results depend on the processing

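Counts of members moved with the scaling between libraries and with voom, which changes the scaling and the model together; the cause was not tested. Shares of all genes tested are given in brackets. In shoots the members called higher numbered 2 on the deposited scale (26.6%) and 7 under quantile normalization (23.5%). They numbered 6 under summed fragments (36.3%) and 5 under voom (28.8%). Those called lower numbered 14 (28.9%), 3 (32.8%), 3 (18.7%) and 12 (27.8%), in the same order of settings. In roots those higher went from 12 (20.8%) to 5 under quantile normalization (17.7%) and 5 under summed fragments (14.1%). Those lower went from 2 (15.4%) to 5 under quantile normalization (17.5%). Between WT organs, those lower in roots went from 6 (41.8%) to 2 under summed fragments (30.5%). In the interaction quantile normalization gave 4 positive and 5 negative (29.2% and 23.3%) and summed fragments 2 and 6 (15% and 36.7%). Over all genes, summed fragments gave 3914 lower in shoots, and 3145 positive and 7697 negative in the interaction. With no filter on low values 1 member was higher in shoots (21.1%) and 1 lower in roots (11.8%). With only the groups of the contrast fitted 1 was lower in roots (13.9%).

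Signs turned as follows. Under quantile normalization the shoot log2 fold change was 0.0578 for AVP1, 0.0501 for VHA-A, 0.0773 for VHA-D, 0.0405 for VHA-E1 and 0.0076 for VHA-G1, and the root value -0.0807 for VHA-H and -0.0778 for VHA-c2. Under summed fragments the shoot value was 0.0265 for VHA-A, 0.0064 for VHA-G1, 0.0256 for VHA-c5, 0.0075 for VHA-d1 and 0.0129 for VHA-d2. Between WT organs quantile normalization gave 0.1132 for VHA-C and 0.0933 for VHA-c1, and summed fragments 0.3074 for VHA-C, 0.2057 for VHA-c1, 0.2909 for VHA-c4, 0.1660 for VHA-c5 and 0.0771 for VHA-c''2. In the interaction quantile normalization gave -0.2730 for AVP1, -0.0121 for VHA-A, -0.0680 for VHA-B3, -0.1739 for VHA-G1, -0.0276 for VHA-H, -0.1677 for VHA-c3 and -0.0294 for VHA-d2. Summed fragments gave -0.1403 for AVP1, -0.0412 for VHA-B3, -0.1682 for VHA-E3, -0.1597 for VHA-G1, -0.1357 for VHA-c3 and -0.0398 for VHA-d2.

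Whether replicate numbers pair the libraries is not stated in the labels. With the replicate block, 1 member was called higher and 13 lower in shoots (26.3% and 28.7% of all genes). The counts were 11 and 1 in roots (20.4% and 15.1%) and 20 and 6 between WT organs (45.3% and 41.8%). In the interaction they were 16 and 0 (26.9% and 23.3%). Leaving out single libraries gave 1 to 2 higher and 11 to 15 lower in shoots, 10 to 14 and 1 to 2 in roots, 19 to 20 and 6 between organs, and 13 to 17 and 0 in the interaction. Over all genes the ranges were 5208 to 5590 higher and 5600 to 6097 lower in shoots, 3712 to 4378 and 2837 to 3214 in roots, 9308 to 9524 and 8607 to 8808 between organs, and 5308 to 5527 and 4649 to 4757 in the interaction. Depth limits VHA-E2 and VHA-G3, which were not tested.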

Other observations

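The sequence before the start of the 31 genes was searched on both strands for the evening element AAAATATCT and the CCA1-binding site AAAAATCT, which CCA1 is known to bind, and for the G-box CACGTG, which light and hormone factors bind. In the 250 bases before the annotated start (RefSeq, TAIR10.1) no member held an evening element or a CCA1-binding site, where 2.22% and 6.38% of 32721 genes did. The G-box was present in 3 members, VHA-A, VHA-B3 and VHA-E3, and in 5.90% of all genes. In the 1000 bases before the start an evening element was present in 3 members, VHA-G3, VHA-H and VHA-d2 (6.93% of all genes). A CCA1-binding site was present in 8 members (20.7% of all genes), AVP1, VHA-B2, VHA-D, VHA-E1, VHA-E2, VHA-G3, VHA-a1 and VHA-d1. A G-box was present in 4, VHA-A, VHA-B3, VHA-E3 and VHA-c''1 (14.1% of all genes).

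The G-box contexts are printed because no member held an evening element or a CCA1-binding site in the shorter window. A link between the G-box and the effect of CCA1-ox was not tested. In the shorter window 9.68% of members held a G-box, against 5.9% of all genes. In the longer window 12.9% did, against 14.1%. VHA-B3 and VHA-E3 were called higher in CCA1-ox roots under all 4 scalings, and VHA-A lost that call under quantile normalization. VHA-c''1 was not called in CCA1-ox against WT in either organ on the deposited scale. VHA-G2 and VHA-c5 were called higher in CCA1-ox roots under all 4 scalings and held no G-box in either window. The contexts and the distal element of VHA-H were chosen for printing after the values were seen. A match is a description of letters only. Capitals mark the motif, and each run reads 5′ to 3′ on the gene's strand.
VHA-A: aataaactgtCACGTGgctattaacg
VHA-B3: agatatgtaaCACGTGatatatcttt
VHA-E3: aaacgagaaaCACGTGtgatgggatg
They lie at chr1:29660061-29660086 (plus), chr1:7016393-7016418 (plus) and chr1:23830158-23830183 (minus) on TAIR10.1, with the motif's nearest base 12, 191 and 68 bases before the start. The evening elements of VHA-G3 and VHA-d2, not printed, lie 621 to 629 and 737 to 745 bases before the start. That of VHA-H lies 342 to 350 bases before the start. VHA-H was lower in CCA1-ox shoots on the deposited scale but was not called under quantile normalization or summed fragments.
VHA-H: tctaattgagAAAATATCTtaaatttcta
This run is at chr3:14233773-14233801 on the minus strand.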
